A study of Mus musculus with 12 samples.

Results

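Lipid droplets are the stores of neutral fat inside cells, and 10 genes of their coats, lipases and synthesis enzymes were described across cardiomyocytes and cultured nonmyocytes of the mouse heart. They were chosen by name and are the perilipin genes Plin2, Plin3, Plin4 and Plin5, the CIDE genes Cidea and Cidec, the lipase genes Pnpla2 and Lipe, and the acyltransferase genes Dgat1 and Dgat2. All 10 were found among the 57683 genes of the polyadenylated RNA table. Hearts of 3 female wild-type FVB/NJ mice, an inbred strain, were digested with collagenase at 12 weeks of age. RNA of the cardiomyocytes, the contracting muscle cells, was taken directly after isolation. The nonmyocytes were first passaged in culture, which left mostly fibroblasts by the labels, and these do not give one number of passages. Each fraction gave 3 libraries. Since only the nonmyocytes were cultured, effects of culture and of cell type cannot be told apart, and the labels do not tie a library number to a heart.

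A lipid droplet is a core of triglyceride and cholesteryl ester under a single layer of phospholipid and coat proteins. Perilipins sit on that layer and govern the access of lipases, CIDE proteins let droplets exchange lipid and grow, and the lipases release fatty acids step by step. In the heart the droplet buffers fatty acids between uptake and oxidation in mitochondria, and the perilipin on it differs between tissues.

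Of the 10 genes, 8 had enough counts to be tested, and 7 of these were higher and 1 was lower in cardiomyocytes (adjusted p under 0.05 by the quasi-likelihood test of edgeR). Among all 14734 genes tested, 31.6% were higher and 32.1% lower, 63.7% in all, so a call in itself was common. The one gene that fell was Plin2, and the 7 that rose were Plin3, Plin4, Plin5, Cidea, Lipe, Dgat1 and Dgat2. Their median log2 fold change, cardiomyocytes over nonmyocytes, was 4.16 over the 8 genes, against -0.02 over all tested genes. The 3 cardiomyocyte and the 3 nonmyocyte libraries did not overlap for any of the 8, which also held for 70.4% of all tested genes (34.1% higher and 36.3% lower in cardiomyocytes). Cidec and Pnpla2 were not tested. Cidec was close to 0 in both fractions, and Pnpla2 stood at 0 in every library, with all of its exon bases inside another annotated gene.

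Total counts were 5956831, 26851830 and 26195634 in cardiomyocyte libraries 1 to 3, and ran from 8126422 to 10792544 in the nonmyocyte libraries. Most markers of cardiomyocytes and fibroblasts fitted the labels of both fractions. All 6 cardiomyocyte markers were higher in cardiomyocytes, with summed levels of 109624 to 146109 CPM (counts scaled to library size by the trimmed mean of M values) against 760 to 1021 CPM in nonmyocytes. Single markers stood in nonmyocytes at 0.637% to 0.762% of their cardiomyocyte level. All 5 tested fibroblast markers were lower, with sums of 148 to 189 CPM against 7589 to 9138 CPM for the list of 6. The untested Lum was not lower, at 1.01 ± 0.556 against 0.484 ± 0.0851 CPM. Endothelial markers were also present in the cardiomyocyte fraction, with 5 of 5 tested higher and sums of 409 to 815 CPM against 52.9 to 62.7 CPM. The untested Pecam1, with 81.1% of its exon bases in other genes, held 0, 3 and 2 counts in cardiomyocytes and none in nonmyocytes. Smooth muscle and pericyte markers summed to 335 to 739 CPM against 353 to 421 CPM, with 3 of 6 higher and 3 lower. Macrophage markers summed to 52.3 to 58.6 CPM against 93.2 to 105.4 CPM, with 1 of 5 tested higher and 2 lower. In these mixed fractions, fewer cells of a type and less RNA per cell cannot be told apart.

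Adipocytes, the fat cells, also express most of the 10 genes. Of 10 adipocyte markers only 3 had enough counts to be tested, with 1 higher and 1 lower. The lower one was Adrb3, with 4, 0 and 4 counts in cardiomyocytes and 36, 26 and 36 in nonmyocytes. Its log2 fold change was -3.58 ± 0.94 (edgeR adjusted p = 0.00469). Pparg was not called, at 6.18 ± 2.60 CPM in cardiomyocytes against 7.58 ± 1.80 CPM in nonmyocytes. Lep stood at 0 in every library. Adipoq, the adiponectin gene, held 0, 2 and 0 counts in cardiomyocyte libraries 1 to 3 and none in nonmyocytes. Plin1, the perilipin of fat cells, held 0, 10 and 5 counts and none in nonmyocytes. Cfd, the adipsin gene, was present in each cardiomyocyte library with 36, 42 and 15 counts, and had none in nonmyocytes. Car3, a carbonic anhydrase gene, held 2, 14 and 25 counts in cardiomyocytes and 3, 0 and 0 in nonmyocytes. The list summed to 190 to 384 CPM in cardiomyocytes against 26.5 to 31.8 CPM in nonmyocytes, of which Fabp4, a gene that endothelial cells share, held 276 ± 97.4 against 18.4 ± 1.09 CPM (SD, n = 3 each). The part of these other cell types in the levels below was not tested.

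Plin3, Plin4 and Plin5 lie on the same strand of chromosome 17 in the mm9 build used by the files, in the order Plin4 (56240017 to 56249011), Plin5 (56251024 to 56256971) and Plin3 (56418392 to 56429934). Only 2012 bases part Plin4 from Plin5, and 161420 bases part Plin5 from Plin3. Plin2 lies on chromosome 4 (86294290 to 86315964). The 250 bases before each start are shown for Plin4 and Plin5, which neighbour each other and rose together, and for Plin2, which fell. They come from RefSeq on build GRCm38, all on the minus strand, at chr17:56109783-56110032 for Plin4, chr17:56117549-56117798 and chr17:56117299-56117548 for the upstream and downstream starts of Plin5, and chr4:86670060-86670309 for Plin2. Capitals mark AGGTCA or its reverse complement TGACCT, one copy of the repeat that nuclear receptors such as the PPARs bind, and TATAA, the core of the TATA box.
Plin4: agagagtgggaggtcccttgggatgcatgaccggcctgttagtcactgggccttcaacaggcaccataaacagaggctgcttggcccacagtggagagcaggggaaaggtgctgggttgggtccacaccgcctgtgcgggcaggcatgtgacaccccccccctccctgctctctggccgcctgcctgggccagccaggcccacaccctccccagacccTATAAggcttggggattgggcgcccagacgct
Plin5, upstream start: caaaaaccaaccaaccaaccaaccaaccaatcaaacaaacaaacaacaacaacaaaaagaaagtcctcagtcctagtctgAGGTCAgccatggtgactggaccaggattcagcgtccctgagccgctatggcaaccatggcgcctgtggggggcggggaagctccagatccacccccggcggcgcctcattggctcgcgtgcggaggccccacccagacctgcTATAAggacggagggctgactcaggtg
Plin5, downstream start: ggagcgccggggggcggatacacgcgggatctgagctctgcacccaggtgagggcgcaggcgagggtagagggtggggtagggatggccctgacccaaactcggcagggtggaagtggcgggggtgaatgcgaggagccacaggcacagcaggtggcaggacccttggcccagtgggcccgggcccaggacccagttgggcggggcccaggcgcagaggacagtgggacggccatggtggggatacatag
Plin2: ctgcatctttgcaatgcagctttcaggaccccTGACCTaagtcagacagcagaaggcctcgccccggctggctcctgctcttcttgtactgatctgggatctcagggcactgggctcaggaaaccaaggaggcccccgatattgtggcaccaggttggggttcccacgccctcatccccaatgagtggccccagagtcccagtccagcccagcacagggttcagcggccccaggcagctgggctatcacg
TATAA lay 32 bases before the start of Plin4 and 27 before the upstream start of Plin5, on the strand of the gene, and was absent from the stretches shown for Plin2 and for the downstream start of Plin5. AGGTCA lay 170 bases before the upstream start of Plin5, and its reverse complement 218 bases before that of Plin2. On either strand and at any position TATAA was in 22.8% and AGGTCA in 14% of all 32851 promoter stretches of this length. The share with TATAA on the strand of the gene at such a distance was not counted. The full PPAR element, AGGNCA repeated after a gap of 1 base, was in 0.338% of them and in none shown here. CACGTG, one form of the E-box, was in 6.02% and in none shown here, and it lay 155 bases before one start of Lipe. Other forms of the E-box were not searched for. Promoters of 7 of the 10 genes were found and searched. That of Plin3, which also rose, held none of these motifs. The counts of Plin5 may rest mainly on the first exon after the downstream start, as described below.

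The coat proteins changed in opposite directions. Plin2, the perilipin found on droplets of nearly all cells, held 110.2, 106 and 114 CPM in cardiomyocyte libraries, against 287, 272 and 304 CPM in nonmyocyte libraries. It was the only one of the 8 tested genes that was lower in each cardiomyocyte library than in any nonmyocyte library. Its log2 fold change was -1.39 ± 0.15 (standard error; edgeR adjusted p = 3.08e-06), a level 2.61-fold higher in nonmyocytes. The level in cardiomyocytes was 38.2% of that in nonmyocytes. The 5 tested fibroblast markers stood there at 1.51% (Col1a1, a collagen gene) to 19.2% (Dcn, the decorin gene), and the untested Lum, with 2, 23 and 30 counts in cardiomyocytes and 7, 4 and 7 in nonmyocytes, at 209%.

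Plin3, the perilipin that shuttles between the cytosol and new droplets, held 448, 409 and 378 CPM in cardiomyocyte libraries and 118, 128 and 114 CPM in nonmyocyte libraries. Its rise was the smallest of the 3 perilipins that rose, at 3.43-fold, a log2 fold change of 1.78 ± 0.15 (edgeR adjusted p = 3.94e-07). Plin4, a perilipin of fat and muscle, had 901, 626 and 758 CPM in cardiomyocyte libraries and 22.6, 21.0 and 23.0 CPM in nonmyocyte libraries. With 762 ± 138 CPM in cardiomyocytes it had the highest CPM of the 8 tested genes, and its log2 fold change was 5.10 ± 0.20 (edgeR adjusted p = 2.82e-10), a 34.2-fold difference. Cardiomyocyte library 1 was highest for both Plin3 and Plin4.

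Plin5, the perilipin of oxidative tissues that links droplets to mitochondria, held 82, 534 and 464 counts in cardiomyocyte libraries, against 3, 2 and 1 counts in nonmyocyte libraries. These came to 15.9, 27.7 and 22.5 CPM in cardiomyocytes, lowest in library 1, and 0.224, 0.193 and 0.0776 CPM in nonmyocytes. Its log2 fold change was 7.0 ± 0.46 (edgeR adjusted p = 2.82e-08). From the summed counts the ratio was 146, with an exact 95% interval of 67.0 to 399 that covers counting error only. The nonmyocyte level was 0.749% of the cardiomyocyte level, where the cardiomyocyte markers stood at 0.637% to 0.762%. With 6 counts in nonmyocytes it cannot be placed inside or outside that range.

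The counts of Plin5 may rest on a short stretch of the gene, though the positions of its reads were not looked at. Of its 2039 exon bases, 95% also lie in the lncRNA gene n295347, which runs along the same strand and held 0, 1 and 0 counts in cardiomyocytes and none in nonmyocytes. The 102 bases in no other gene are a run of 101 (56256621 to 56256721) and 1 base at 56256971. The run belongs to the first exon of 1 of the 2 annotated transcripts of Plin5, the one with the downstream start, 250 bases from the other. In the transcript with the upstream start the run lies in the first intron, between exon bases 56256620 and 56256925. If the counts rest on this run, the fold, level and share of Plin5 may not cover that transcript. How the counting treated shared bases is not given in the sources used here, but all 370 protein-coding genes with every exon base in other genes stood at 0 in every library, as against 28.1% of the 11005 with none shared. Of the 316 genes with over 90% but not all bases shared, 59.2% stood at 0.

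**Figure D1:**
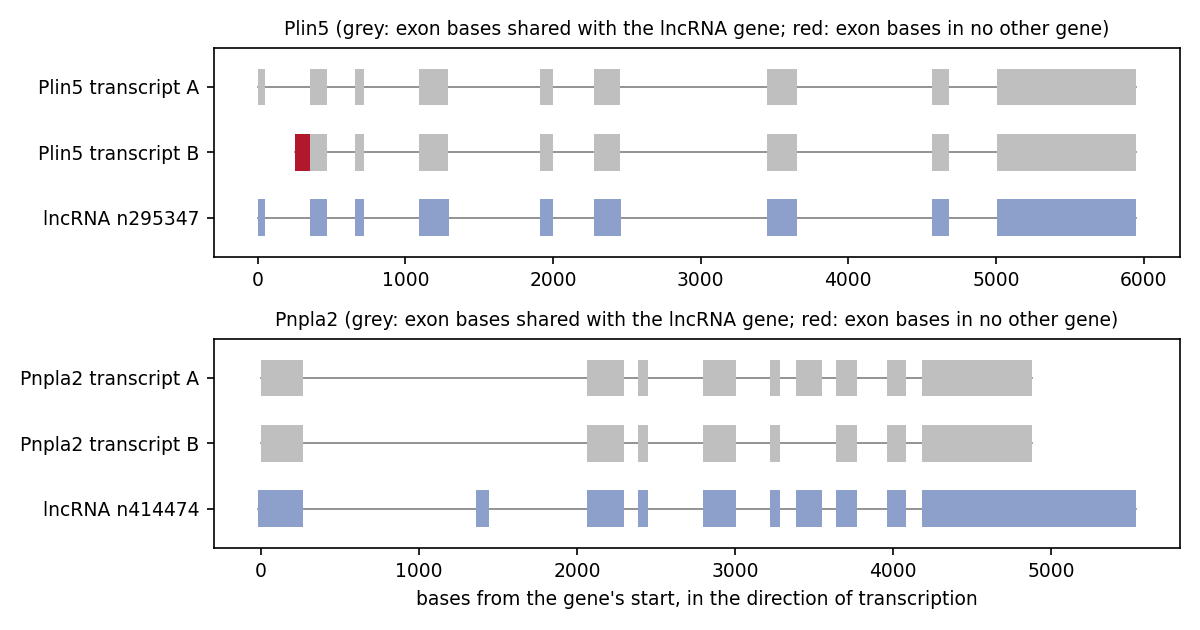
Exons of Plin5 (top) and Pnpla2 (bottom) and of the lncRNA gene over each, by distance in bases from the start of the gene. Red marks exon bases in no other gene, a run of 101 in the downstream first exon of Plin5 and none in Pnpla2. Grey marks exon bases shared with the lncRNA gene, and blue the exons of that gene.

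Pnpla2 codes for adipose triglyceride lipase, which takes the first fatty acid from a triglyceride. It held 0 counts in all 6 libraries. All 1961 of its exon bases on chromosome 7 (148641106 to 148645987) lie in the lncRNA gene n414474 on the same strand, as the map of exons shows. It is thus one of the 370 genes above, and its 0 sets no upper limit on its level. The overlapping gene n414474, with 766 exon bases outside Pnpla2, held 23, 28 and 30 counts in cardiomyocytes and 6, 0 and 1 counts in nonmyocytes. These counts were not assigned to Pnpla2 here.

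Cidea and Cidec both code for proteins that let droplets fuse and grow, and they stood far apart. Cidea (chromosome 18, 67503253 to 67527432) held 61.6, 61.6 and 56.3 CPM in cardiomyocyte libraries, against 0.672, 0.193 and 0.155 CPM in nonmyocyte libraries, which hold 9, 2 and 2 counts. It had the largest fold of the 8 tested genes, a log2 fold change of 7.37 ± 0.37 (edgeR adjusted p = 1.98e-09), and a ratio of summed counts of 167 with an exact 95% interval of 97.4 to 314. Without nonmyocyte library 1, its highest nonmyocyte library, the log2 fold change was 8.43. The nonmyocyte level was 0.568% of the cardiomyocyte level, just under the range of the cardiomyocyte markers. It rests on 13 counts, too few to place it outside that range. Cidec (chromosome 6, 113374628 to 113385754) held 0, 4 and 1 counts in cardiomyocytes and 4, 0 and 0 counts in nonmyocytes. A count of 0 allows up to 3 counts, which is 0.145 to 0.581 CPM in these cardiomyocyte libraries and 0.224 to 0.290 CPM in the nonmyocyte libraries, so no difference was detectable at this depth. No exon base of Cidec lies in another gene.

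Lipe codes for hormone-sensitive lipase, which takes the second fatty acid. It held 59.3, 48.2 and 68.1 CPM in cardiomyocyte libraries and 7.69, 5.99 and 5.12 CPM in nonmyocyte libraries. Every cardiomyocyte library was far above the nonmyocyte ones, and the log2 fold change was 3.22 ± 0.24 (edgeR adjusted p = 8.34e-08), or 9.31-fold. Its nonmyocyte level was 10.7% of the cardiomyocyte level, above the share of the cardiomyocyte markers. The gene lies on chromosome 7 (26164546 to 26183729), and 18.1% of its exon bases overlap genes of the opposite strand, from which reads cannot be told apart in libraries without strand.

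Both enzymes of the last step of triglyceride synthesis rose, by very different amounts. Dgat1 (chromosome 15, 76332445 to 76342381) held 44.6, 44.0 and 41.5 CPM in cardiomyocyte libraries and 17.5, 18.0 and 18.1 CPM in nonmyocyte libraries. Its log2 fold change was 1.28 ± 0.19 (edgeR adjusted p = 4.98e-05), or 2.42-fold. Dgat2 (chromosome 7, 106302168 to 106331227) held 349.9, 509.6 and 446 CPM in cardiomyocyte libraries and 11.3, 9.76 and 10.01 CPM in nonmyocyte libraries. It was lowest in cardiomyocyte library 1, as Plin5 was, and its log2 fold change was 5.39 ± 0.21 (edgeR adjusted p = 2.50e-10), or 41.9-fold. The lncRNA gene n297428, on the same strand and at 0 in all libraries, covers 30.7% of the exon bases of Dgat2.

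**Figure D2:**
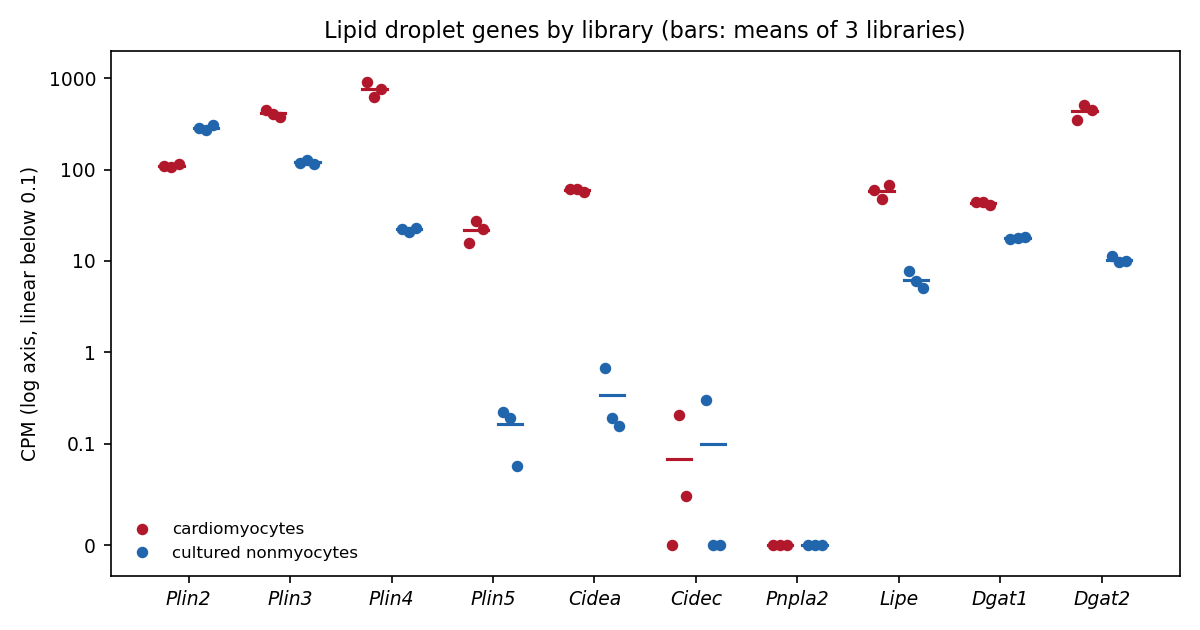
CPM of the 10 genes in each library on a log axis that is linear below 0.1, with cardiomyocytes in red to the left and nonmyocytes in blue to the right, and bars at the mean of 3 libraries. Plin2 is the one gene with nonmyocytes above cardiomyocytes among the 8 tested, and Plin5 and Cidea are under 1 CPM in every nonmyocyte library.

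Scaling shifted all the folds together without turning any. With library totals alone as the scale, the median log2 fold change of all tested genes moved by -0.68, and the higher genes made up 30.9% of the calls, where the trimmed mean gave 49.6%. On that scale Plin2 stood at -2.06 and Dgat1 at 0.60, the lowest of the genes that rose, and the 8 calls kept their direction.

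**Figure D3:**
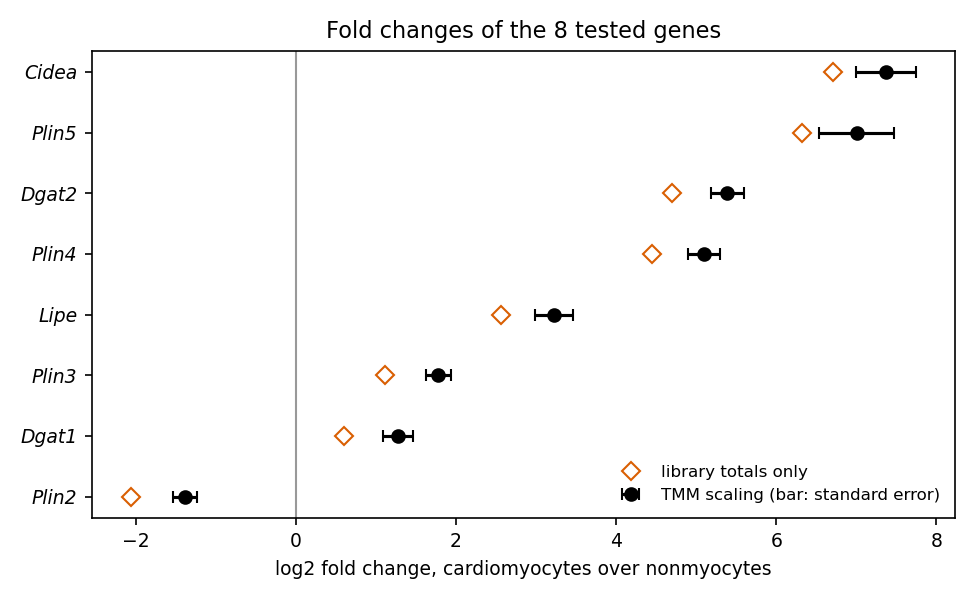
Log2 fold change, cardiomyocytes over nonmyocytes, of the 8 tested genes, with black points and standard error bars for trimmed mean scaling and open diamonds for library totals alone. Plin2 lies below 0 and the other 7 above 0 under both.

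Divided by the length of their exons, the levels of the 8 tested genes can be set against each other. Cidec lay below all 8 in both fractions, at 0.0459 ± 0.0584 CPM per kb in cardiomyocytes and 0.0536 ± 0.0929 CPM per kb in nonmyocytes, although in nonmyocytes this is within the spread of Plin5. In cardiomyocytes Dgat2 (193 ± 35.6 CPM per kb) and Plin3 (191 ± 16.3) were highest and did not differ beyond their spread. Plin4 followed at 135 ± 24.5, Cidea at 53.8 ± 2.74 and Plin2 at 31.3 ± 1.24 CPM per kb. Dgat1 (14.2 ± 0.535), Lipe (13.1 ± 2.23) and Plin5 (10.8 ± 2.89 CPM per kb) were lowest of the 8, and neighbours among these 3 lay within their spread. In nonmyocytes the order began with Plin2 at 82.0 ± 4.59 and Plin3 at 55.7 ± 3.30 CPM per kb. Dgat1 (5.85 ± 0.0938), Dgat2 (4.59 ± 0.377), Plin4 (3.95 ± 0.195) and Lipe (1.40 ± 0.292 CPM per kb) came next, and Cidea and Plin5 were lowest of the 8, within their spread of each other, at 0.306 ± 0.259 and 0.0809 ± 0.0378 CPM per kb. The order depends on the length used. The longest transcript has 1888 bases for both Plin2 and Dgat1, against 3512 and 3054 exon bases in all. By that length Plin2 would stand above Cidea in cardiomyocytes, and Dgat1 above Lipe beyond their spread. Plin5 depends most on the length. Per kb of exon bases in no other gene Plin5 stood at 216 ± 57.9 CPM in cardiomyocytes against 1.62 ± 0.756 CPM in nonmyocytes. Its cardiomyocyte level was then next to those of Plin3 (191 ± 16.3) and Dgat2 (278 ± 51.3 per kb of exon bases in no other gene). That length was chosen after the data were seen.

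The make-up of the perilipin transcripts differed between the fractions within each library, a measure that does not depend on the scaling of libraries. Plin2 made up 7.70%, 8.72% and 9.20% of the 4 perilipins, per kb of exon, in cardiomyocyte libraries, against 58.2%, 55.0% and 60.2% in nonmyocyte libraries. Plin4 made up 39.3%, 32.2% and 38.1% in cardiomyocytes and 2.86%, 2.65% and 2.85% in nonmyocytes. Neither pair of groups overlapped, and the exact two-sided permutation test gave p = 0.1 for each, the smallest that 3 libraries against 3 allow. Over the 6 ratios and shares tested the adjusted p was 0.1 as well. These cardiomyocyte shares moved with the length used. Per kb of exon bases in no other gene Plin4 made up 28.8%, 18.5% and 23.9% in cardiomyocyte libraries. With the length of the longest transcript Plin2 made up 13.4%, 15.1% and 15.8% there. The fractions did not overlap in either case.

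Plin3 and Plin5 took shares that depend most on how the length of Plin5 is counted. Only 102 of its 2039 exon bases lie in no other gene. If reads in shared bases went uncounted, the length of all exon bases understates Plin5 and overstates the other perilipins. Per kb of all exon bases Plin3 held 51.9% ± 2.85 of the perilipins in cardiomyocytes and 39.3% ± 2.69 in nonmyocytes (SD, n = 3 each), and Plin5 2.99% ± 1.02 and 0.0573% ± 0.0272 (exact permutation p = 0.1 each). Per kb of exon bases in no other gene Plin5 held 37.4% ± 8.61 in cardiomyocytes and 1.13% ± 0.534 in nonmyocytes, and Plin3 33.4% ± 3.53 and 38.9% ± 2.54. The difference for Plin3 thus turned round, to -5.51 percentage points (exact permutation p = 0.2). That of Plin2 stayed negative, at -51.7 points, and that of Plin4 positive, at 21.0 points. Summed over all 4, the level was 408, 345 and 354 CPM per kb in cardiomyocyte libraries and 140.6, 140.7 and 144 CPM per kb in nonmyocyte libraries. The ratio of the means was 2.60. It was 1.87 with the length of the longest transcript and 4.01 with bases in no other gene.

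**Figure D4:**
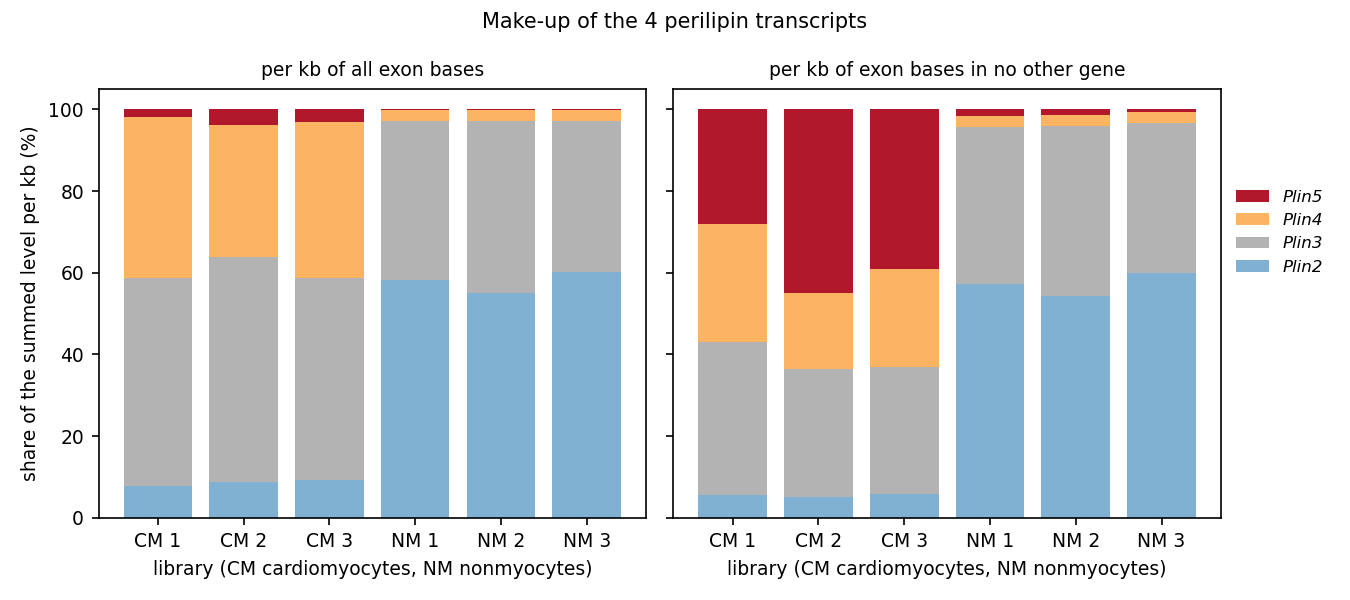
Share of each perilipin in the summed level of the 4 perilipins, in percent, for each library (CM cardiomyocytes, NM nonmyocytes), with levels per kb of all exon bases on the left and of exon bases in no other gene on the right. Plin2 holds over 50% in each nonmyocyte library and under 10% in each cardiomyocyte library in both panels, while the Plin5 share in cardiomyocytes changes with the length.

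Ratios between partner genes differed too. The log2 ratio of Dgat2 to Dgat1 per kb was 3.41, 3.97 and 3.86 in cardiomyocyte libraries, against -0.19, -0.44 and -0.42 in nonmyocyte libraries (exact permutation p = 0.1, the smallest possible). Dgat2 thus led in each cardiomyocyte library and Dgat1 in each nonmyocyte library, but with bases in no other gene the nonmyocyte mean was 0.18 in favour of Dgat2. The difference of 4.09 between the fractions does not depend on length. The log2 ratio of Plin5 to Plin2 averaged -1.57 ± 0.43 in cardiomyocytes and -9.75 ± 0.71 in nonmyocytes, a difference of 8.18 (exact permutation p = 0.1). Its level depends on length as well, and with bases in no other gene it averaged 2.75 in cardiomyocytes and -5.43 in nonmyocytes, so that Plin5 then stood above Plin2 in cardiomyocytes. A ratio of Lipe to Pnpla2 could not be formed.

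Other genes of triglyceride synthesis were called in both directions, in shares near those of all tested genes (31.6% higher and 32.1% lower). Of 17 tested of 19 listed, 7 were higher, 6 lower and 4 not called in cardiomyocytes, with a median log2 fold change of 0.18 against -0.02 over all tested genes. Acsl1, which activates fatty acids with coenzyme A, held 1337 ± 410.2 CPM in cardiomyocytes and 25.9 ± 1.21 CPM in nonmyocytes (log2 fold change 5.69 ± 0.26), the steepest rise of the list. Gpam, for the mitochondrial enzyme of the first acylation of glycerol phosphate, held 422 ± 169.5 against 49.1 ± 6.12 CPM (3.10 ± 0.28). Agpat3, a lysophosphatidate acyltransferase gene, held 582 ± 31.3 against 171 ± 6.36 CPM (1.77 ± 0.15). Mogat2, whose product acylates monoacylglycerol, had 7 counts in cardiomyocytes and 261 in nonmyocytes and the steepest fall (-5.47 ± 0.61), which was -6.37 without cardiomyocyte library 2. The highest edgeR adjusted p among these 4 genes was 4.18e-06, for Mogat2.

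Of 11 tested partners of the lipases and other neutral lipid hydrolases, 7 were higher, 2 lower and 2 not called, at a median log2 fold change of 2.26, where 31.6% of all tested genes were higher and 32.1% lower. Ces3, listed as Ces1d in newer gene tables and coding for a triglyceride hydrolase, held 219.5 ± 40.9 against 1.51 ± 0.297 CPM (7.18 ± 0.25), and its nonmyocyte level was 0.687% of the cardiomyocyte level. Nceh1, a cholesteryl ester hydrolase gene, held 453 ± 99.96 against 23.7 ± 4.69 CPM (4.26 ± 0.23), and Mgll, for the lipase of the last step, 328 ± 62.8 against 51.1 ± 9.37 CPM (2.68 ± 0.20). The steepest fall was that of 2310016C08Rik, now named Hilpda, which codes for an inhibitor of adipose triglyceride lipase, at 4.85 ± 1.24 against 10.9 ± 2.63 CPM (-1.13 ± 0.34, edgeR adjusted p = 0.00970). Its call was lost without nonmyocyte library 2 (edgeR adjusted p = 0.0598).

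The inhibitor and the activator of adipose triglyceride lipase were looked at after their values were seen, since the lipase itself has no counts. G0s2, the inhibitor, held 148 ± 26.1 CPM in cardiomyocytes and 30.5 ± 1.87 CPM in nonmyocytes (log2 fold change 2.28 ± 0.18, edgeR adjusted p = 1.82e-07). Abhd5, the activator, held 7.49 ± 3.09 against 2.91 ± 1.46 CPM (1.39 ± 0.47, edgeR adjusted p = 0.0202). Its call was lost with library totals (0.71, adjusted p = 0.204), without cardiomyocyte library 3 (1.02, adjusted p = 0.132) and without nonmyocyte library 1 (1.08, adjusted p = 0.0527), and 71.7% of its exon bases are shared with other genes.

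Of 13 tested of 17 listed genes of droplet assembly and other droplet proteins, 4 were higher, 5 lower and 4 not called, at a median of -0.08. These shares are near the 31.6% higher and 32.1% lower of all tested genes. Fitm1, the muscle form of a membrane protein that promotes fat storage, held 388 ± 72.9 against 2.07 ± 0.534 CPM (7.53 ± 0.26, the steepest of all genes in the 3 lists). Pcyt1a, which sets the pace of phosphatidylcholine synthesis, held 224.5 ± 26.7 against 87.5 ± 7.24 CPM (1.36 ± 0.16). Spg20, for the droplet-associated protein spartin, held 65.5 ± 3.01 against 134 ± 7.52 CPM (-1.04 ± 0.15). Soat1, for the enzyme that esterifies cholesterol, had the steepest fall at 1.77 ± 1.00 against 50.4 ± 9.51 CPM (-4.70 ± 0.34), and 33.4% of its exon bases overlap other genes. The highest edgeR adjusted p among these 4 genes was 5.79e-05, for Spg20.

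**Figure D5:**
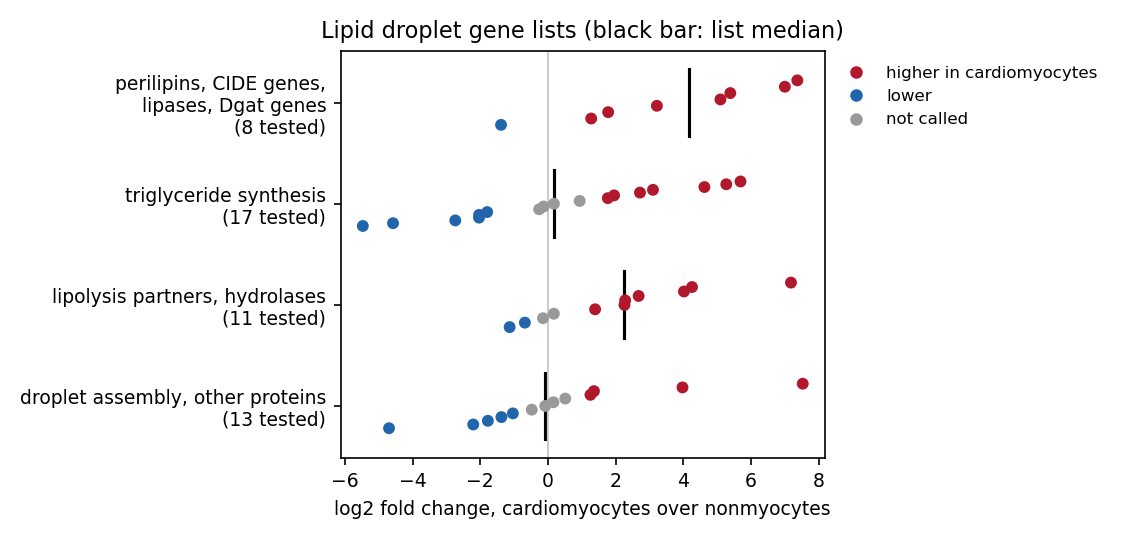
Log2 fold change, cardiomyocytes over nonmyocytes, of each tested gene in the described set (8 tested) and in the lists of triglyceride synthesis (17), lipase partners and hydrolases (11) and droplet assembly (13), with black bars at the list medians. Medians stand at 4.16, 0.18, 2.26 and -0.08.

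Genes with the closest pattern were sought among 4225 protein-coding genes, by the root mean square difference of log2 CPM over the 6 libraries after centring. Closest to Plin5 were Pla2g5, a secreted phospholipase gene, and BY080835, both at 0.167, and the muscle myosin gene Myo18b at 0.204. Closest to Dgat2 were the sodium pump subunit gene Atp1b1 at 0.0931, the cadherin gene Cdh13 at 0.113 and the semaphorin gene Sema4d at 0.190. With 3 libraries a fraction this likeness is mostly the size of the difference between fractions, and 2.60% of the genes lay within 0.5 of Plin5 and 2.15% within 0.5 of Dgat2. No such search could be made for Pnpla2.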

How the data were processed

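The authors deposited whole-number counts per gene, not normalised, of non-strand-specific single-end polyadenylated RNA libraries, per the labels. The submitters' processing notes list, with no roles, TopHat 1.3.0, Bowtie, edgeR, DESeq and HTSeq, and build mm9. The counting rules were not given in the sources used here. Positions, joined exon lengths and shared exon bases come from the deposited mm9 annotation, whose values are positions.

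Counts were fitted with edgeR 4.0.16 in R 4.3.3 (filterByExpr with minimum count 10, TMM, robust quasi-likelihood test, two-sided, Benjamini-Hochberg over 14734 genes, called under 0.05). Standard errors were computed from the fold and its F statistic. CPM (counts per 1e6) values use TMM-scaled totals of the tested genes. Ratios within a library use a pseudocount of 0.5 counts and an exact permutation test, and closest patterns one of 0.1 CPM, a mean of 20 CPM or more and under 10% of exon bases shared. The script was tested on simulated data, where 28.1% of log2 changes of 1 and 96.9% of those of 2 were recovered. A gene not called may thus still differ by a log2 change of 1.

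Named genes are all 10, and per list the 3 most abundant and the steepest each way. The genes and lists were chosen with earlier results of these data known. P-values reflect only how far libraries of one fraction differ, possibly for technical reasons. Alternatives were other scalings, no filter, DESeq2 1.42.0, limma 3.58.1 voom, a test against a 2-fold change, the replicate block, other lengths, and leaving out each library or the mitochondrial genes. Small RNA counts were not used here.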

Additional observations from a re-analysis of the deposited data

How the results depend on the processing

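All 8 folds kept their direction under the 15 alternatives run for each, and all kept their call except that of Dgat1 in the test against a 2-fold change (1.28, adjusted p = 0.0559). That edgeR test called 0 of the lipase partners lower (0 at an unadjusted p under 0.05, and 2 by DESeq2 and by limma against no change) and 3 of the droplet assembly genes, against 2 and 5, and 3023 genes higher and 2996 lower in all. With library totals 4 lipase partners and 7106 genes in all were lower, against 2 and 4732. Leaving out each library in turn gave 1 to 2 lower lipase partners, with 1 without nonmyocyte library 2. The cardiomyocyte minus nonmyocyte shares moved with the length used. With the longest transcript they were -57.0 percentage points for Plin2 and 22.1 for Plin3. With exon bases in no other gene, chosen after the data were seen, they were -5.51 for Plin3, 21.0 for Plin4 and 36.2 for Plin5, where Plin5 has 102 bases left. Whether library numbers pair the samples cannot be settled with 3 libraries a fraction. Deviations of same-numbered libraries correlated at 0.23, 0.06 and 0.17, and those of other pairs at -0.25 to 0.11. Libraries 1 and 3 were closest to their own number, while cardiomyocyte library 2 was closest to nonmyocyte library 3 (0.08). With the replicate block 9499 genes were called, against 9389, and the 8 calls stayed. Depth limits Cidec, and the annotation limits Pnpla2 and Plin5. The ratio of Lipe to Pnpla2 was not run.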
